A study of Rattus norvegicus with 179 samples.

Results

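The hippocampus and the prefrontal cortex (PFC) of the same rats were compared, with both libraries of a rat matched by the rat code in the sample names. Of 36 pairs, 31 were used, that is 62 of the 72 brain libraries and of the 179 libraries in the series. The pairs AE9, CS7, CS3, PS7, and PS13 were left out because a library of each showed expression of the other region, a choice that rests on measured levels. The rats were male F344BN rats, obtained at an age of 24 mo, before the 12 wk of intervention. All were gavaged 3 times/wk for 12 wk, with L. paracasei expressing Ang (1–7) (LPA), with unmodified L. paracasei (LP), or with buffer (CON). Exercised rats (Ex) ran on a treadmill on 5 days/wk at 12 cm/s, and sedentary rats (Sed) were placed on a treadmill that did not move. The pairs comprised 5 LPAEx, 6 LPASed, 6 LPEx, 4 LPSed, 6 CONEx, and 4 CONSed rats. Starting age, sex, and gavage were thus shared by all groups, and each regional difference below is that of aged, gavaged males.

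The hippocampus is a folded, older part of the cortex in which granule cells of the dentate gyrus feed pyramidal cells of the CA fields, and it is needed to form memories of places and events. The PFC is layered neocortex whose projection neurons serve working memory and flexible choice. Both regions also hold interneurons, astrocytes, oligodendrocytes, microglia, and vessels. Each library came from tissue of a whole region, and in such bulk samples fewer cells of a type and less RNA per cell cannot be told apart.

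Total counts ranged from 13203828 to 23179688 in the hippocampus (median 16913757) and from 13211009 to 17944320 in the PFC (median 14398126). At least 1 count was found for 14950 to 18728 genes in hippocampal libraries and for 15293 to 17767 genes in PFC libraries. The table names genes by Ensembl ID, and the reference table used here paired 0 of the 32545 IDs with a symbol. Genes are therefore given by ID, at most 2 in each direction of a comparison, without a function, and the marker genes of neurons and glia could not be looked up.

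Because markers could not be used, the region labels were examined on a scale built from the libraries themselves. It used 96 genes with a median of at least 10 CPM (counts of a gene relative to the scaled library total) in the hippocampus and at least 3-fold above the PFC, and 82 genes chosen the same way for the PFC. On this scale 0 is the median of the PFC libraries and 1 that of the hippocampal libraries, so the medians are fixed. Genes and pairs were both chosen on these libraries, which sets the regions apart, so the positions do not test the region labels and are given for the spread within each region. On the 96 hippocampal genes, the 31 hippocampal libraries lay between 0.317 and 1.1, and the 31 PFC libraries between -0.0919 and 0.165. Among the hippocampal libraries, 2 stood well below the rest, PE10 at 0.317 and AE4 at 0.485, against 0.886 or more in the other 29. On the 82 prefrontal genes, the hippocampal libraries lay between 0.748 and 1.17, with PE10 at 1.01 and AE4 at 0.887, and the PFC libraries between -0.102 and 0.539. The PFC library of AE7 was the highest of these at 0.539, and those of CE5 and AE6 followed at 0.316 and 0.291. PE10 and AE4 thus had low levels of hippocampal genes without high levels of prefrontal genes. AE7 was at 0.129 for the hippocampal genes in its PFC library.

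**Figure D1:**
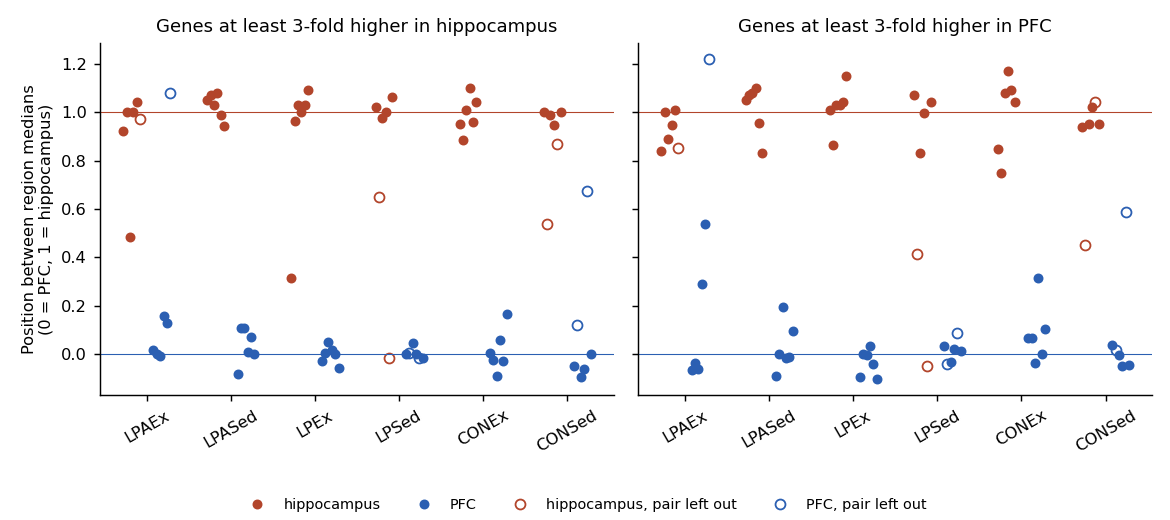
Position of each of the 72 brain libraries between the region medians (y axis, 0 = PFC and 1 = hippocampus), for genes higher in the hippocampus (left) and genes higher in the PFC (right), by group along the x axis. Filled points are the 31 pairs used and open points the 5 pairs left out; hippocampal PE10 and AE4 lie at 0.317 and 0.485 on the left, and PFC AE7 at 0.539 on the right.

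The pairs left out differed from the others in several ways. In PS7 the hippocampal library was at -0.014 on the hippocampal genes and at -0.0497 on the prefrontal genes, both at the level of the PFC. In AE9 the PFC library was at 1.08 and 1.22, both at the level of the hippocampus. The PFC library of CS7 was intermediate, at 0.674 and 0.586. The hippocampal libraries of CS3 (0.539 and 0.452) and PS13 (0.649 and 0.416) were intermediate as well.

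Hippocampus was compared with PFC within rats in 14886 genes that passed the low-count filter. A differentially expressed gene (DEG) had a false discovery rate (FDR) < 0.10 and an absolute log2 fold change > 1, by the paired quasi-likelihood test of edgeR with rat as a block. There were 743 genes higher in the hippocampus, 4.99% of those tested, and 537 genes lower, 3.61%. The median log2 fold change over all genes was 0.01, with quartiles of -0.20 and 0.21, so the bulk of genes was centered near no difference. The FDR alone was met by 6908 genes, 3407 higher and 3501 lower in the hippocampus, and 5628 of these differed by no more than 2-fold. At the fold threshold, the genes nearest to it had log2 fold changes of 1.001 inside and 0.9999 outside on the higher side, and -1.002 inside and -0.9985 outside on the lower side.

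Large fitted differences were mostly toward the hippocampus. A difference of more than 4-fold was seen in 225 genes higher and 112 genes lower in the hippocampus, of more than 8-fold in 116 and 27, and of more than 16-fold in 64 and 11. The median log2 fold change was 1.49 among the higher genes and -1.39 among the lower genes. Of the higher genes, 60 had a median of 0 CPM in the PFC libraries, and of the lower genes, 9 had a median of 0 CPM in the hippocampal libraries. The fitted folds of such genes depend on how zero counts are handled, and their part in the counts of large differences was not tested. DEGs were expressed at lower levels than genes at large. The median level in the higher region was 4.88 CPM for the 743 genes and 7.44 CPM for the 537 genes, against 20.1 CPM over all tested genes. In all, 58 of the higher genes (7.81%) and 56 of the lower genes (10.4%) reached 100 CPM in the region where they were higher, against 2114 (14.2%) of all tested genes.

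**Figure D2:**
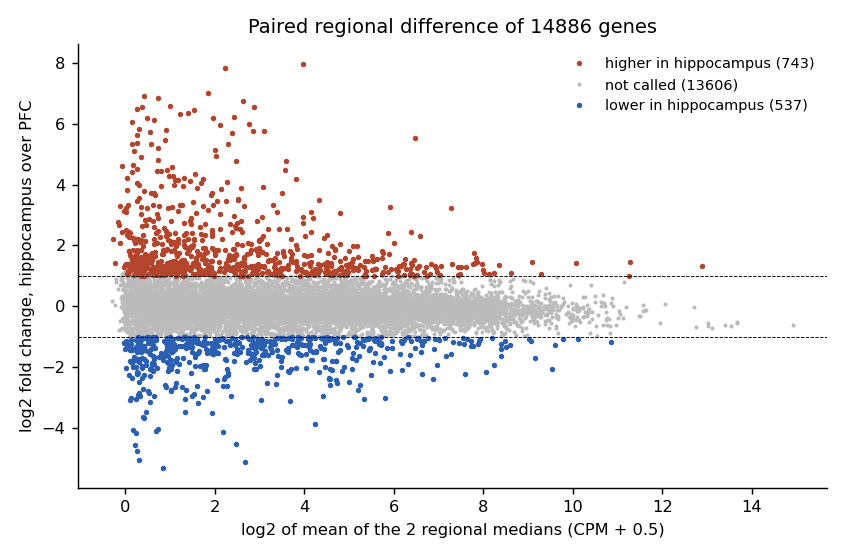
Log2 fold change of hippocampus over PFC (y axis) against the level of each of the 14886 genes (x axis, log2 of the mean of the regional medians in CPM + 0.5). Red points are the 743 genes higher in the hippocampus, blue points the 537 genes lower, and dashed lines the fold threshold; the points above 4 on the y axis outnumber those below -4.

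The DEGs took up a small part of each library. The 743 genes received 3.19 to 6.75% of the counts of hippocampal libraries (median 4.24%) and 1.12 to 2.54% of those of PFC libraries (median 1.44%). The 537 genes received 0.99 to 1.46% of the counts of hippocampal libraries (median 1.20%) and 1.78 to 3.18% of those of PFC libraries (median 2.85%). In neither group of genes did the shares of the regions overlap. The genes were chosen on the same libraries, so these shares describe the size of the difference and do not test it.

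The genes were called on these same rats, so the following counts describe them and are no test of direction. Of the 743 higher genes, 170 were higher in the hippocampus of all 31 rats and 497 in at least 28 rats. Of the 537 lower genes, 99 were lower in all 31 rats and 329 in at least 28. Over all tested genes, 227 (1.52%) were higher and 147 (0.988%) lower in all 31 rats. Complete separation was less common. In 36 of all tested genes (0.242%) the lowest hippocampal library lay above the highest PFC library, and 34 of these were DEGs. In 21 genes (0.141%) the lowest PFC library lay above the highest hippocampal library, and 17 of these were DEGs. The SD of the paired log2 difference between rats, on the log2 (CPM + 0.5) scale, had a median of 0.922 in the higher and 0.924 in the lower genes, against 0.552 over all genes.

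The genes with the largest differences were chosen among DEGs that had a median of at least 10 CPM in the higher region and the same direction in all 31 pairs. There were 99 such genes on the higher side and 84 on the lower side. The gene highest in the hippocampus by fold change was ENSRNOG00000016275, with 8.97 CPM in the lowest, 29.9 CPM in the median, and 13200 CPM in the highest hippocampal library, and 0, 0.35, and 17.1 CPM in the PFC. Both regions overlapped in this gene, since CS6 had 18.7 CPM in its hippocampus and 17.1 CPM in its PFC. The log2 fold change was 7.96 (SE 0.76, FDR = 5.14e-11 from edgeR), and the mean paired difference was 6.39 ± 3.51 (SD, n = 31 rats) on the log2 (CPM + 0.5) scale.

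ENSRNOG00000028077 was next, with 3.5, 11.4, and 38.3 CPM in the lowest, median, and highest hippocampal library. It had 0, 0, and 0.685 CPM in the PFC, where 18 of 31 libraries had no count. The regions did not overlap. Its log2 fold change was 6.75 (SE 0.349, FDR = 1.26e-17 from edgeR), with a mean paired difference of 4.29 ± 0.851 (SD, n = 31). In liver, colon, and muscle its medians were 0.094, 0.089, and 0 CPM, so the hippocampus was the only one of the 5 tissues with a median above 1 CPM.

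On the lower side, ENSRNOG00000030111 had 0, 0.195, and 3.36 CPM in the lowest, median, and highest hippocampal library, and 0.164, 11.6, and 20.6 CPM in the PFC. The lowest PFC value belonged to AE7, at 0.164 CPM, followed by AE6 at 2.87 CPM and CE5 at 3.58 CPM, the PFC libraries that stood highest on the scale of prefrontal genes. By its medians this gene is itself a member of that scale, so the match is not separate from it. The log2 fold change was -5.11 (SE 0.363, FDR = 3.19e-14 from edgeR), and the mean paired difference was -3.61 ± 1.07 (SD, n = 31). Its medians in liver, colon, and muscle were all 0 CPM.

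ENSRNOG00000002768 had 0, 1.61, and 4 CPM in the lowest, median, and highest hippocampal library, and 4.81, 13.7, and 19.8 CPM in the PFC. Every PFC library was above every hippocampal library. The log2 fold change was -3.08 (SE 0.252, FDR = 1.2e-12 from edgeR), and the mean paired difference was -2.70 ± 1.01 (SD, n = 31). Without the pairs PE10, AE4, and AE7, a choice made after seeing the data, the log2 fold changes of the genes named above were 8.20, 6.78, -5.11, and -3.11 in the order given.

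**Figure D3:**
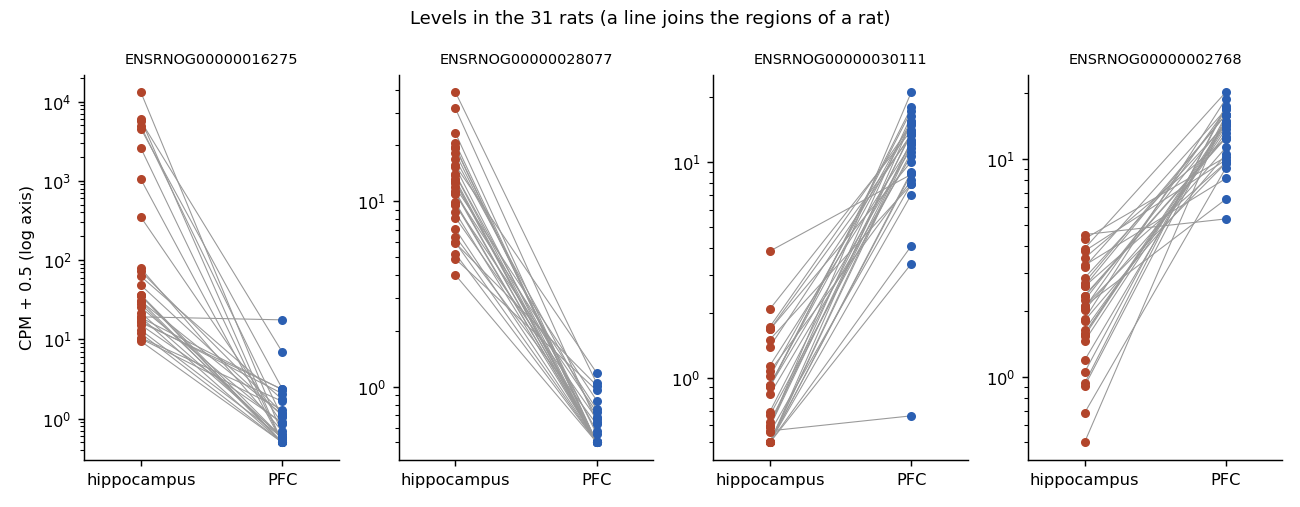
Levels of ENSRNOG00000016275 and ENSRNOG00000028077, higher in the hippocampus, and of ENSRNOG00000030111 and ENSRNOG00000002768, lower in the hippocampus, in the 31 rats (y axis, CPM + 0.5 on a log axis of its own for each gene). Each line joins the hippocampus (left, red) and the PFC (right, blue) of a rat; all lines run in 1 direction, and hippocampal ENSRNOG00000016275 spreads to 13200 CPM.

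Hippocampal levels of ENSRNOG00000016275 were spread far more widely than those of the other named genes. They were above 100 CPM in 8 of 31 hippocampal libraries, from 349 CPM in CS8 to 13200 CPM in CE7, with PE10 at 6000, CS4 at 5700, AS11 at 4920, CE5 at 4570, CE12 at 2600, and PS10 at 1050 CPM. The next library, AE11, had 78.1 CPM. By group, the libraries above 100 CPM were 0 of 5 in LPAEx, 1 of 6 in LPASed, 1 of 6 in LPEx, 1 of 4 in LPSed, 3 of 6 in CONEx, and 2 of 4 in CONSed. The PFC libraries of the 8 rats had at most 6.44 CPM. Among the pairs left out, the hippocampal library of AE9, an LPAEx rat, had 184 CPM. Those of CS3, CS7, PS7, and PS13 were below 100 CPM. This gene had a median of 8670 CPM in the liver, 1.62 CPM in the colon, and 0.0555 CPM in the muscle, in CPM not scaled across tissues.

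A further 61 genes varied with it, with a Pearson correlation of at least 0.8 across the 31 hippocampal libraries on the log2 (CPM + 0.5) scale. This is a description, since the points share their libraries and 8 of them set the range. The highest correlation was 0.98. The 61 genes were 0.41% of tested genes and included 17 of the 743 higher genes, 5 of the 537 lower genes, and 39 genes that were not DEGs. Their mean level ranged from 1.75 to 5.94 in the hippocampus (median 2.19) and from 1.57 to 3.33 in the PFC (median 2.14), in log2 (CPM + 0.5). The medians of the regions were therefore close, and it was the upper end that differed. Of the 61 genes, 17 (27.9%) had a median of at least 10 CPM in the liver, against 45.2% of all tested genes, and 9 (14.8%) were below 1 CPM in liver, colon, and muscle, against 11.8%. The paired difference of these genes had a median SD of 1.48, above the 0.552 of all genes. The 61 genes were chosen for following a widely spread gene in these hippocampal libraries. That choice favors both the wide upper end and the large SD, so neither is a separate result. The cell type that carries these transcripts was not tested, because no marker could be matched to an ID.

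**Figure D4:**
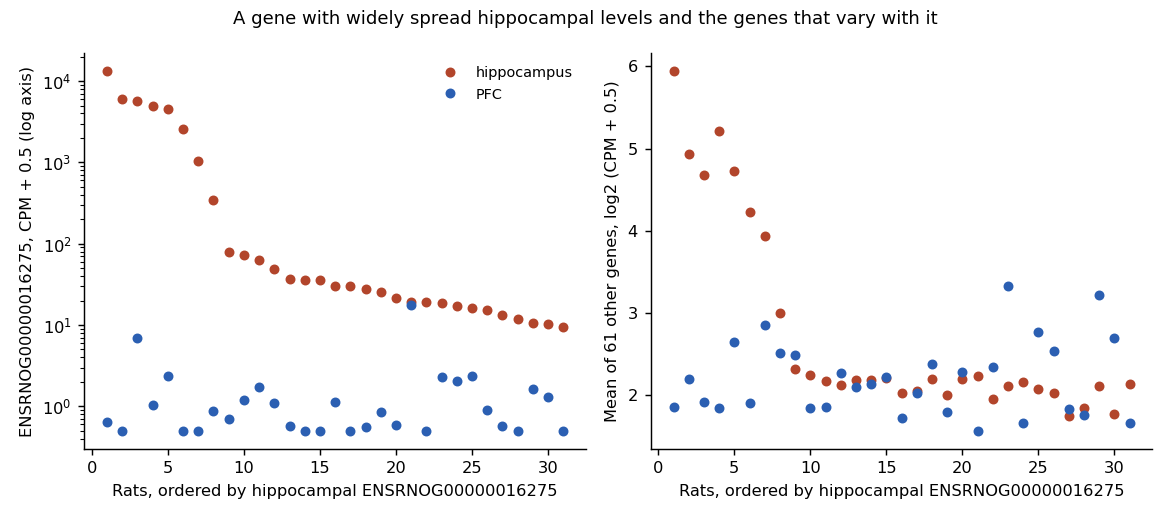
Level of ENSRNOG00000016275 (left, CPM + 0.5 on a log axis) and mean level of the 61 genes that vary with it (right, log2 (CPM + 0.5)) in the hippocampus (red) and PFC (blue) of each of 31 rats. Rats are ordered along the x axis by hippocampal ENSRNOG00000016275; the 8 rats at the left, from 13200 to 349 CPM, are also the 8 highest hippocampal points on the right, up to 5.94. The 61 genes were chosen for varying with these hippocampal levels, which favors the shared order.

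DEGs between the regions were more often limited to the brain than genes at large. Of the 743 higher genes, 298 (40.1%) had medians below 1 CPM in liver, colon, and muscle, and so did 186 (34.6%) of the 537 lower genes, against 1756 (11.8%) of all tested genes. At the other end, 94 higher genes (12.7%) and 68 lower genes (12.7%) were at least 10-fold higher in liver, colon, or muscle than in the higher brain region after adding 0.5 CPM. Over all tested genes this share was 5.90%. The colon accounted for 55 of the higher and 31 of the lower genes, the liver for 38 and 26, and the muscle for 20 in each direction, with some genes counted under more than 1 tissue. DEGs were lower in level than other genes, which affects both shares, and no test was made of them.

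The regional difference was then followed group by group. Fitted on its own pairs alone, LPAEx (5 pairs) had 321 genes higher and 258 lower in the hippocampus, and LPASed (6 pairs) had 802 and 495. LPEx (6 pairs) had 424 and 498, and LPSed (4 pairs) had 628 and 384. CONEx (6 pairs) had 582 and 369, and CONSed (4 pairs) had 594 and 364. LPAEx, with the fewest DEGs, holds AE4 and AE7, and LPEx, with fewer higher than lower genes, holds PE10. The part of these libraries in the counts was not tested within the groups. The sign of the mean paired difference was that of the overall difference in all 6 groups for 1164 of the 1280 DEGs (90.9%). Over all tested genes this held for 4537 (30.5%). The DEGs were called on the pooled rats of these groups, so these counts are a description. They do not show that the difference repeats across groups.

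In each rat, the median paired difference over the 743 higher genes lay between 0.814 and 1.80 on the log2 (CPM + 0.5) scale, and over the 537 lower genes between -1.51 and -0.683. All 31 rats were on the same side for both. The lowest value for the higher genes was that of PE10 (0.814), and the value nearest to 0 for the lower genes was that of AE7 (-0.683). Since the genes were called on these rats, only the spread between rats carries information.

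**Figure D5:**
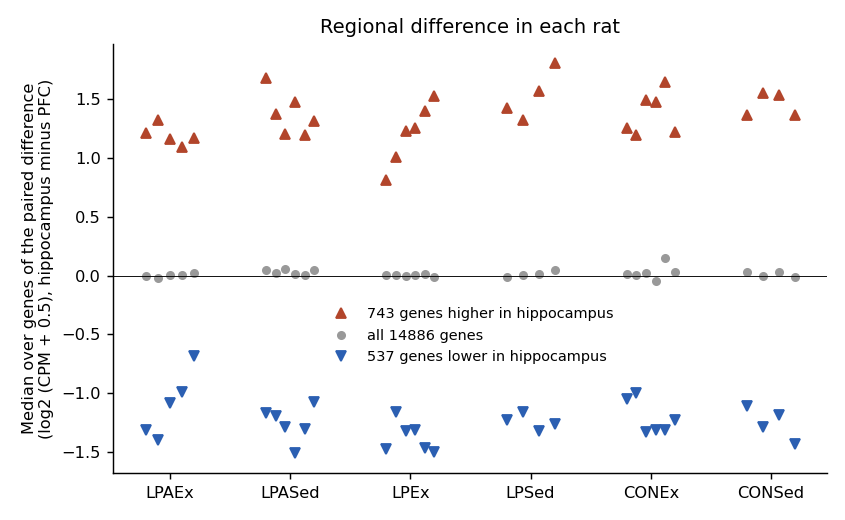
Median paired difference, hippocampus minus PFC (y axis, log2 (CPM + 0.5)), in each rat over the 743 genes higher in the hippocampus (triangles up), all 14886 genes (gray), and the 537 genes lower (triangles down), by group along the x axis. The higher genes lie between 0.814 and 1.80 and the lower genes between -1.51 and -0.683 in all 31 rats.

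To ask whether exercise changed the difference between regions, the hippocampus minus PFC difference was compared between Ex and Sed rats, averaged over the 3 treatments. No gene passed an FDR < 0.10 in edgeR (0 of 14886, or 0%, with a smallest FDR of 0.286). At an unadjusted p < 0.05 in edgeR there were 1303 genes (8.75%). Of these, 549 had a higher and 754 a lower signed hippocampus minus PFC difference in Ex rats. Without a filter the count at an FDR < 0.10 was again 0, as it was by limma on the paired differences. DESeq2 called 52 genes (0.349% of those tested), 45 of them with a lower signed difference in Ex rats. Of those 52, 10 (19.2%) were among the genes higher in the hippocampus, which made up 4.99% of tested genes. Among the lower genes, which made up 3.61%, there were 0. The higher and lower genes were called on these same rats, so this overlap is a description and no test.

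The 743 genes higher in the hippocampus had a smaller median difference in Ex rats than in Sed rats. The median over genes of the mean paired difference was 1.16 in 17 Ex rats and 1.36 in 14 Sed rats, with a median Ex minus Sed difference of -0.18, against -0.02 over all tested genes. The fitted interaction, which weights the 3 treatments equally and adds no 0.5 CPM, had a median of -0.28 over these genes. Its median over the same genes was also below 0 for LPA against CON (-0.22) and for LP against CON (-0.11). None of these medians was tested, and AE4 and AE7 are LPA rats and PE10 is an LP rat. Over all tested genes the fitted medians were -0.02 for exercise, 0.01 for LPA, and -0.03 for LP. Per rat, the median over these genes ranged from 0.814 to 1.64 in Ex rats and from 1.19 to 1.80 in Sed rats, so the groups overlapped. PE10, AE4, and AE7 are all Ex rats. Without them, the median was 1.23 in 14 Ex rats and 1.36 in 14 Sed rats, and the difference was -0.13. The 537 lower genes had medians of -1.19 in Ex and -1.15 in Sed rats, a difference of -0.03.

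The genes with the smallest p for exercise are given although they did not pass. ENSRNOG00000061845 had 39.8, 111, and 172 CPM in the lowest, median, and highest hippocampal library and 30.9, 114, and 151 CPM in the PFC of Ex rats. In Sed rats it had 66.3, 127, and 187 CPM in the hippocampus and 47.7, 62.5, and 89.5 CPM in the PFC. The values differed mainly in the PFC, whose median was 114 CPM in Ex rats and 62.5 CPM in Sed rats. The interaction was -0.76 on the log2 scale (SE 0.162, FDR = 0.286 from edgeR). ENSRNOG00000027355 had median values of 14.6 CPM in the hippocampus and 15.5 CPM in the PFC of Ex rats, against 16.4 and 11.1 CPM in Sed rats, with an interaction of -0.68 (SE 0.15, FDR = 0.286). DESeq2 called both, with FDR = 0.0107 for ENSRNOG00000061845 and FDR = 0.0126 for ENSRNOG00000027355.

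The same question was put to the probiotics, averaged over Ex and Sed. For LPA against CON, 0 of 14886 genes (0%) passed in edgeR, with a smallest FDR of 0.4 and 585 genes (3.93%) at an unadjusted p < 0.05. By limma 0 passed, and by DESeq2 48 did (0.322% of those tested), 44 of them with a lower signed hippocampus minus PFC difference in LPA rats. For genes lower in the hippocampus, a lower signed difference is a wider gap between the regions. Of the 48 genes, 2 (4.17%) were among the genes higher in the hippocampus, which made up 4.99% of tested genes. Another 12 (25%) were among the genes lower in the hippocampus, which made up 3.61%. Of these 12, ENSRNOG00000018606 had a higher, not a lower, signed difference in LPA rats. Further, 11 of the 48 (22.9%) were among the 61 genes that vary with ENSRNOG00000016275, which is 18% of the 61, while the 61 were 0.41% of tested genes. The 61 were chosen on these same hippocampal libraries, where ENSRNOG00000016275 was above 100 CPM in more CON than LPA rats. This overlap is therefore a description and no test. The same holds for the overlap with the genes higher or lower in the hippocampus, which were called on these rats and share members with the 61. For LP against CON, 0 of 14886 (0%) passed in edgeR, with 448 genes (3.01%) at an unadjusted p < 0.05, 0 passed by limma, and 1 passed by DESeq2 (0.00672%). That gene was ENSRNOG00000054495, also 1 of the 61, with a log2 difference of -11.27 (FDR = 2.17e-06 from DESeq2). DESeq2 called it for LPA as well, and both comparisons share the CON rats, so the call was not particular to LPA.

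For LPA, the smallest p belonged to ENSRNOG00000054495, which was not called by edgeR (FDR = 0.4) and was called by DESeq2 (FDR = 3.38e-15). The fitted interaction was -9.67 (SE 2.01) in edgeR, -15.08 in DESeq2, and -5.14 in limma, and -13.05 in edgeR without CS8. The PFC was at 0 CPM in all 6 CONEx rats, so the fitted value depends on how zero counts are handled and is no measure of the fold. Hippocampal values were 0, 0.542, and 124 CPM in 11 LPA rats, against 0.113, 4.71, and 212 CPM in 10 CON rats, and PFC values were 0, 1.53, and 2.78 CPM against 0, 0, and 1.99 CPM. The ranges overlapped in both regions, and the gene is 1 of the 61. Without the hippocampus and PFC of AS11 it passed (FDR = 0.0282). ENSRNOG00000015518 had an interaction of -1.15 (SE 0.253, FDR = 0.4 from edgeR, and FDR = 0.0139 from DESeq2). Its median was 16.5 CPM in the hippocampus and 43.6 CPM in the PFC of LPA rats, against 18.9 and 19.6 CPM in CON rats. Without CS8, another gene, ENSRNOG00000010208, chosen after its value was seen, passed for LPA (FDR = 0.0807).

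For LP, the smallest p belonged to ENSRNOG00000004150 and ENSRNOG00000056212. The median of ENSRNOG00000004150 was 3.6 CPM in the hippocampus and 3.57 CPM in the PFC of LP rats, against 6.7 and 2.52 CPM in CON rats, with an interaction of -1.61 (SE 0.419, FDR = 1 from edgeR). That of ENSRNOG00000056212 was 1.83 and 1.9 CPM in LP rats, against 1.83 and 0.679 CPM in CON rats, with an interaction of -2.003 (SE 0.53, FDR = 1). The paired log2 difference overlapped between LP and CON rats in both genes, with -0.717 to 1.38 in LP rats against 0.659 to 3.09 in CON rats for ENSRNOG00000004150, and -1.33 to 0.95 against -0.29 to 2.19 for ENSRNOG00000056212.

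Measured levels of a gene in the hippocampus and PFC of the same rat showed little correlation in most genes. Across the 31 rats, the Pearson correlation between the regions in log2 (CPM + 0.5) had a median of 0.02 over all tested genes, with quartiles of -0.10 and 0.14. It was above 0.5 in 33 genes and below -0.5 in 10. The median was 0.05 among the 743 higher and 0.03 among the 537 lower genes. These are descriptions over genes, with depth, group, and library quality shared by the points of a rat. No region of a rat had a repeat library, so the part of measurement noise in the low values was not tested. The highest correlation, 0.753 (Spearman 0.547, n = 31), was that of ENSRNOG00000011815, chosen after its value was seen. It had 57.1, 81.9, and 300 CPM in the lowest, median, and highest hippocampal library and 33.5, 47.3, and 110 CPM in the PFC.

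The spread between rats was compared between regions in the 9739 genes with a median of at least 10 CPM in a region. Within groups, the SD of log2 (CPM + 0.5) had a median of 0.295 in the hippocampus and 0.3 in the PFC, and it was higher in the hippocampus for 48.1% of genes. An SD more than 2 times that of the other region was found for 220 genes in the hippocampus and 86 in the PFC. Without PE10, AE4, and AE7 the order turned, with medians of 0.262 and 0.297, a higher SD in the hippocampus for 33.5% of genes, and more than 2 times the other region for 35 genes in the hippocampus and 187 in the PFC. Those 3 rats were chosen after seeing the data, PE10 and AE4 for outlying hippocampal libraries, which favors a lower hippocampal SD without them. The part of each rat was not tested.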

How the data were processed

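Gene counts were made and deposited by the authors as whole numbers per Ensembl ID, without normalization. Reads were checked with FastQC, trimmed with Trim Galore and cutadapt, and aligned to Rnor_5.0 with STAR, with versions not given in the sources used here. Strand settings were not stated. No column went unused and no pair of libraries was identical.

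Genes were filtered by region with the edgeR 4.0.16 (R 4.3.3) low-count filter, scaled by TMM, and tested with quasi-likelihood F tests with rat as a block. Both libraries of a rat share its code in the labels. The SE is the log2 fold change divided by the square root of F. Interactions used region within group. CPM used TMM factors of all 72 brain libraries, and 0.5 CPM was added before logs. CPM of liver, colon, and muscle used library totals only. Deviations of the regions of a rat from their group means had a median correlation of 0.0464 over genes, above 0.1 in 5 of 31 rats. Alternatives were DESeq2 1.42.0, limma 3.58.1 on paired differences (prior count 2, variance trend over mean level), RLE factors, no filter, no block, all 36 pairs, each group alone, and each rat left out. Figures used Python 3.11.15 and matplotlib 3.10.9. Scripts were checked on simulated counts with known changes.

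Named genes were DEGs with the largest fold changes, a median of at least 10 CPM in the higher region, and the same direction in all pairs, or, for interactions without a DEG, those with the 2 smallest p, at most 2 IDs in each direction. The members, the lists, and the 5 pairs left out were chosen with earlier results of these data known. With 0 IDs matched to symbols, the planned marker lists and a planned test of 16 clock genes were not run.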

Additional observations from a re-analysis of the deposited data

Results flagged for a closer look

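Within each group of 4 to 6 rats, the paired difference of the 4 named genes and the position of each library on the regional scale were examined for a library far from the others, in 48 sets of values. In 6 sets a library lay beyond Dixon's limit, and chance gives about 1 in 20. The genes and the scale were chosen on these libraries and the sets share rats. The number of flags is therefore no test against chance. For ENSRNOG00000016275, the paired log2 difference was 12.2 in AS11 against 2.8 to 6.15 in the other LPASed rats, and 13.6 in PE10 against 4.57 to 6 in the other LPEx rats. For ENSRNOG00000028077 it was 2.36 in AE11 against 4.47 to 5.04 in the other LPAEx rats. On the hippocampal genes, the hippocampal library of AE4 was at 0.485 against 0.923 to 1.04 in the other LPAEx rats, and that of PE10 at 0.317 against 0.962 to 1.09 in the other LPEx rats. On the prefrontal genes, the hippocampal library of CS6 was at 1.02 against 0.938 to 0.951 in the other CONSed rats.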

How the results depend on the processing

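The counts of 743 higher and 537 lower genes stayed within 1.5 times under DESeq2, limma, RLE factors, all 36 pairs (662 and 407), without PE10, AE4, and AE7 (795 and 528, chosen after seeing the data), and for each of the groups alone except as follows. Without the low-count filter there were 2095 DEGs, 1289 higher and 806 lower, among 24428 genes. LPAEx alone gave 579, 321, and 258, and LPEx alone gave 424 higher genes, with fewer pairs in each fit. Similar counts did not mean the same genes. A group alone called from 31.7% (LPAEx) to 63.4% (LPASed) of the 1280 DEGs. Without the replicate block, that is without pairing by rat, 1215 DEGs were called, 707 higher and 508 lower, and 1157 of the 1280 remained. Leaving out each rat gave 1263 to 1320 DEGs, 722 to 769 higher and 518 to 553 lower. ENSRNOG00000002768 missed the FDR in LPAEx alone (-2.75, FDR = 0.112). No named gene reversed its direction in any alternative. The interaction counts were 0 for exercise, LPA, and LP, but DESeq2 called 52, 48, and 1. The LPA count was 1 without the filter (ENSRNOG00000054495, FDR = 0.0367), and 0 to 1 when each rat was left out, against 0 to 0 for exercise and for LP. The cause was not tested. The leave-one-out fits kept the dispersion trend of all 31 rats. The clock gene test and its alternatives were not run. Genes under 1 CPM rest on few counts, and LPSed and CONSed had 4 pairs each.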
